A study of Mus musculus with 6 samples.

Results

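The genes described here are those of the hypoxia-inducible factor (HIF) pathway outside glycolysis, measured in mouse myeloid cells with and without induction of PU.1. The list held 38 genes, namely the HIF subunits, the enzymes and the ligase component that sense oxygen, and target genes of HIF, out of 22180 genes in the expression table. A gene counted as measured where a transcript cluster, the array's unit for 1 transcript region, carried its symbol alone, and this held for 36 of the 38. Bnip3l and Ankrd37 had no such cluster and are not reported. For the 5 members with 2 clusters (Hif1a, Pdk1, Ero1a, Ndrg1 and Car9), the cluster was selected on the highest mean log2 value over all 6 arrays. These mean levels chose the cluster and are not tested.

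RNA came from myeloid cells labelled as fetal liver in origin and grown in 1 ng/ml of the growth factor GM-CSF. Cells without doxycycline (uninduced A, B and C) were compared with cells given 1000 ng/ml doxycycline over 72 hours (induced A, B and C), a treatment that the labels equate with expression of PU.1, the myeloid and B cell transcription factor encoded by Spi1. Each group had 3 samples with 1 Affymetrix Mouse Gene 2.0 ST array each, and values are always given in the order A, B, C. The labels give no mouse strain, no age, no description of the inducible construct and no statement that the replicates were separate cultures, and no doxycycline-treated sample lacked induction, so the drug and PU.1 cannot be told apart and the p-values describe only the spread between these samples.

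HIF is a dimer of an alpha subunit (HIF-1 alpha from Hif1a or HIF-2 alpha from Epas1) and the beta subunit ARNT. In oxygenated cells prolyl hydroxylases of the Egln family mark the alpha subunit, the VHL protein then recruits a ubiquitin ligase to it, and the asparaginyl hydroxylase of Hif1an blocks its coactivators, so the pathway is controlled chiefly at the level of the alpha subunit protein, which an expression array does not measure. Under low oxygen, and in myeloid cells also under inflammatory signals, HIF binds elements with the core ACGTG or GCGTG and activates genes for mitophagy, angiogenesis, collagen modification and its own feedback inhibitors, among which Egln1 and Egln3 are well known.

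Values are the deposited log2 expression values, with array medians between 6.53 and 6.78. As a guide to background, the 95th percentile of 1373 olfactory and vomeronasal receptor genes was taken on each array. This reference lay between 7.05 and 7.37 on the uninduced arrays, at 7.39 on induced A, and at 7.98 and 7.86 on induced B and C. Differences are induced minus uninduced, from a limma fit of all 22180 genes with Benjamini-Hochberg adjustment, and a gene is called at an adjusted p under 0.05. By limma 3 of the 11 myeloid markers rose and 0 fell, where 0.374% of all genes were called higher and 1.05% lower. The risers were the lysozyme gene Lyz2, the myeloperoxidase gene Mpo and the pan-leukocyte gene Ptprc. Over the 11 the difference was above 0 for 7 and below 0 for 4, between -0.40 and 1.43, with a median of 0.24. Spi1 itself was at 8.80, 8.65 and 8.84 without doxycycline and 9.13, 9.04 and 9.05 with it. Its difference was 0.31 (SE 0.12, adjusted p = 0.152 by limma). Csf1r and Ptprc lay below the reference on all 6 arrays, and Mpo on every uninduced array. Markers of 8 other cell types (erythroid, megakaryocyte, mast, B, T and NK, fibroblast, endothelial and hepatocyte) had 0 called members by limma among 40 measured, with 3 lower and 8 higher at an unadjusted p under 0.05. At that unadjusted step 3743 of all 22180 genes were lower and 2538 higher. Of those 40, 34 lay below the reference on all 6 arrays, while the stem and mast cell receptor gene Kit and the endothelial and leukocyte gene Pecam1 were above it on all 6, and the basophil and mast cell protease gene Mcpt8 was at 8.55, 8.82 and 8.65 without doxycycline and 8.16, 7.24 and 7.89 with it. The mean level of the 11 myeloid markers ran from 8.62 to 8.78 in the uninduced and from 9.04 to 9.11 in the induced samples. Most of this rise came from Lyz2 (1.43), Ptprc (1.24) and Mpo (1.11), while the other markers differed by -0.40 to 0.60. The part of these shifts in the results was not tested.

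In the induced cells 18 of the 36 measured members were lower and 0 were higher by limma. The members were chosen with earlier results of these data known. Their contrasts with all genes are therefore descriptions and not tests. Among all 22180 genes 1.05% were called lower (232 genes) and 0.374% higher (83 genes). Brighter genes ran lower in general: 2.42% of the 8265 genes with a mean above the reference were called lower, against 16 of the 28 members above it. The median difference was -0.72 over the 36 members and 0.058 over all genes, and -0.84 over those 28 members against -0.31 over the 8265 genes. At an unadjusted p under 0.05, 26 of the 36 members were lower and 0 higher, and 23 of the 28 above the reference were lower, where 16.9% of all genes and 39.2% of those above the reference were. The difference was below 0 for 34 of the 36 members and for all 28 above the reference, against 44% of all genes and 84.8% of those above it. The 3 induced values lay below the 3 uninduced values for 26 of the 36 members and 23 of the 28, against 15.4% of all genes and 33.6% of those above the reference. By fitted difference, 8 of the members were among the 20 largest falls of the whole table (Bnip3, Fam162a, Ddit4, Ak4, Ndrg1, Egln1, Egln3 and P4ha1), although Bnip3, Ddit4 and Egln1 were above the reference on 1 of 3 induced arrays, and Ak4 and P4ha1 on 2, which leaves their ranks uncertain. In bulk RNA, fewer cells with a transcript and less transcript per cell cannot be told apart.

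After cyclic loess, a scaling that removes the trend with brightness, 12 of the 18 calls remained, 0 members were called higher, 33 members were below 0 and the median was -0.42. That scaling called 118 genes lower and 83 higher in the whole table. Leaving out 1 array at a time gave 9 lower members without induced C, 10 without uninduced A, 14 to 16 without uninduced B, uninduced C or induced B, and 22 without induced A. Bnip3, Fam162a, Ak4, Egln1, Egln3, Ero1a, Plod1, Ddit4 and Ndrg1 were called lower under each of the 16 alternative settings.

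Of the 3 subunit genes 0 were called by limma, and 2 were lower at an unadjusted p under 0.05. Hif1a (chromosome 12, 73901324 to 73947554 in mm10), the oxygen-regulated subunit, had log2 values of 10.25, 10.37 and 10.14 without doxycycline and 9.84, 10.00 and 9.41 with it. The groups did not overlap, with a gap of 0.14, and the difference of -0.50 (SE 0.17, adjusted p = 0.123 by limma) did not pass the threshold. The 95% interval was -0.87 to -0.14, unadjusted for multiple testing as are all intervals given. Hif1a was -0.30 after quantile normalization, -0.15 after cyclic loess and -0.34 without induced C, and was not called under any of these. A dimmer second cluster of Hif1a, with a mean of 6.06, differed by -0.22. The beta subunit gene Arnt was at 10.25, 10.58 and 10.19 without doxycycline and 10.12, 9.81 and 9.86 with it, where induced A lay just below the lowest uninduced value, and its difference was -0.41 (SE 0.15, adjusted p = 0.14 by limma). Without induced A, Arnt was called at -0.51, while it was -0.21 after quantile normalization and -0.059 after cyclic loess, not called. Epas1 lay below the reference on all 6 arrays, between 6.41 and 6.66, with a difference of -0.08 (95% interval -0.36 to 0.20), so no change in HIF-2 alpha transcript could be read at this brightness.

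Among the oxygen sensors, the prolyl hydroxylase genes Egln1 and Egln3 fell and Egln2 did not pass the test. Egln1 (chromosome 8, 124908587 to 124949254), the main hydroxylase of HIF-1 alpha in most cells, was at 9.63, 9.64 and 9.53 without doxycycline and 8.36, 7.49 and 7.77 with it. All induced values lay more than 1.1 below the uninduced ones, and above the reference on induced A only. The fitted difference of Egln1 was -1.73 (SE 0.20, adjusted p = 0.00227 by limma), and with only 1 of 3 induced values above the reference its size is uncertain. Egln3 (chromosome 12, 54178981 to 54203874) was at 11.53, 11.50 and 11.71 without doxycycline and 9.96, 10.00 and 9.75 with it, a difference of -1.67 (SE 0.13, adjusted p = 0.000259 by limma), or 3.19-fold lower, and stayed above the reference on all 6 arrays. The 3 induced arrays differed from each other by less than 0.3 for Egln3. Its difference was -1.52 after quantile normalization and -1.36 after cyclic loess, called under both. Egln2 (chromosome 7, 27158658 to 27166802), a hydroxylase that is not known as a hypoxia target, was at 9.17, 9.14 and 8.97 without doxycycline and 9.11, 8.93 and 8.73 with it, where the groups overlapped and the difference was -0.18 (SE 0.14, adjusted p = 0.378 by limma), with the sign turned after cyclic loess (0.18) and quantile normalization (0.047).

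Taking the ratio of 2 genes on each array, Egln1 changed by -1.55 relative to Egln2 (with the same limit on Egln1) and Egln3 by -1.50 relative to Egln2 on the log2 scale. Each had a two-sided exact permutation p of 0.1, the smallest that 3 against 3 arrays allow, and 0.15 after adjustment over 6 pairs compared within the Egln and Kdm genes. No pair could have passed 0.05, and the members were chosen with earlier results known. The ratios of all 6 pairs are therefore descriptions, and other related members were not compared in this way. Egln1 against Egln3 gave -0.052 (exact permutation p = 0.8, adjusted 0.8). Vhl, the substrate receptor of the ligase, was at 7.69, 8.52 and 7.92 without doxycycline and 7.64, 7.33 and 7.59 with it, with uninduced B highest and a gap of 0.054 between the groups. Its difference was -0.52 (SE 0.20, adjusted p = 0.144 by limma), and -0.28 without uninduced B. Hif1an was at 7.78, 8.29 and 7.75 without doxycycline and 7.95, 7.27 and 7.59 with it with overlapping groups and a difference of -0.33 (SE 0.20, adjusted p = 0.262 by limma). Among the induced arrays, both were above the reference on induced A only.

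**Figure D1:**
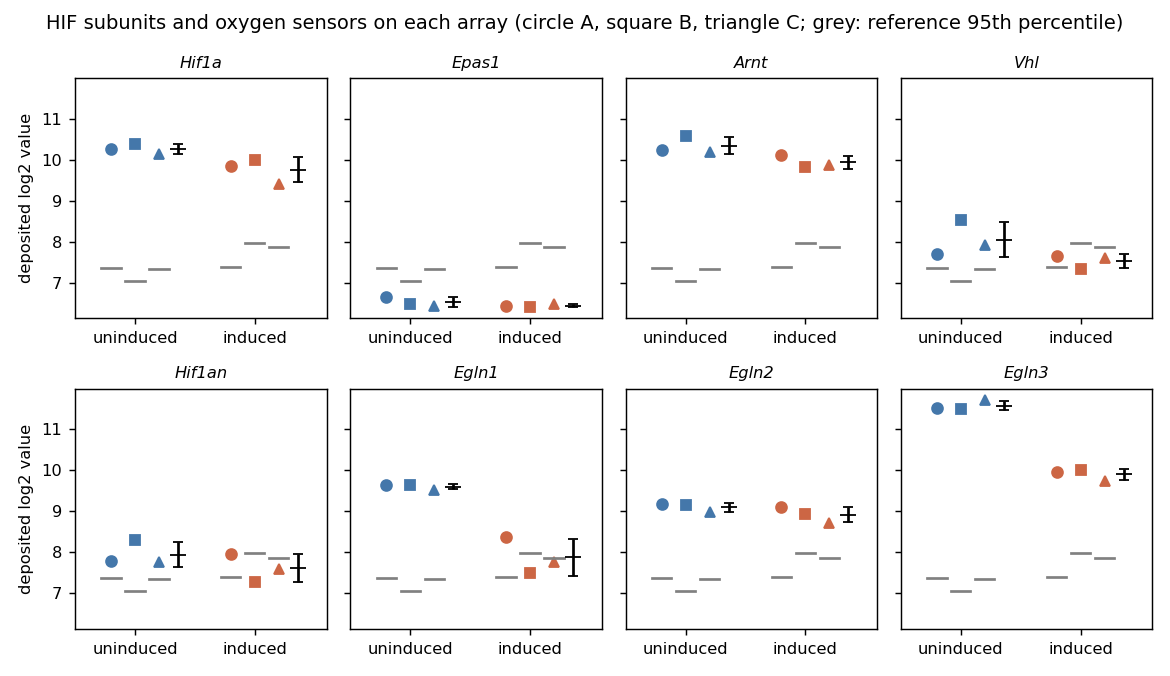
Deposited log2 values (y axis) of the 3 HIF subunit genes and 5 oxygen sensor genes by group (x axis), 1 symbol for each array, with the mean and SD of each group of 3 in black and the reference 95th percentile of each array as a grey bar. Egln1 and Egln3 differ by -1.73 and -1.67 between separated groups, while Egln2 overlaps between the groups and Epas1 lies below the grey bars throughout.

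The mitochondrial targets fell together: 5 of 5 measured members were called lower, with a median difference of -1.77. Bnip3 (chromosome 7, 138890836 to 138909506), a mitophagy receptor in the outer membrane, was at 9.93, 10.23 and 10.27 without doxycycline and 8.01, 7.79 and 7.70 with it. The lowest uninduced value stood 1.92 above the highest induced one, and the difference was -2.31 (SE 0.15, adjusted p = 5.82e-05 by limma). Induced B and C lay in the reference range, so the size is uncertain. Fam162a (chromosome 16, 36043844 to 36071561), a mitochondrial protein linked to hypoxic cell death, was at 10.83, 10.60 and 10.64 without doxycycline and 9.01, 8.11 and 8.11 with it. It fell by 2.29 (SE 0.22, limma adjusted p = 0.000841), and induced A stood 0.90 above induced B and C. The induced B and C values lay not far above the reference of those arrays (7.98 and 7.86), so the size is uncertain.

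Ak4, a mitochondrial adenylate kinase, was at 9.89, 9.81 and 9.86 without doxycycline and 8.51, 7.64 and 8.10 with it, a difference of -1.77 (SE 0.20, adjusted p = 0.00178 by limma), with 2 of the 3 induced values above the reference. Its 3 uninduced values lay within 0.1 of each other, and induced A was again the highest of the induced ones. Pdk1, the kinase that shuts pyruvate dehydrogenase under hypoxia, was at 8.78, 8.54 and 8.66 without doxycycline and 7.96, 7.34 and 7.28 with it, a difference of -1.13 (SE 0.18, adjusted p = 0.0147 by limma). Of its induced values only that of induced A lay above the reference. Pdk1 lost its call when uninduced A (-1.07) or either of induced B (-1.04) and C (-1.01) was dropped, after cyclic loess and quantile normalization, and when averaged with its second cluster, which lay at 3.63 and gave a mean difference of -0.59. Higd1a, a small protein of the respiratory chain's inner membrane, was at 7.39, 7.79 and 7.13 without doxycycline and 6.81, 6.28 and 6.09 with it. It was called (limma adjusted p = 0.0428) with all induced values in the range of background, so its size cannot be read. The call ended without uninduced A or B or induced B or C (fitted differences -1.07 to -0.87) and after quantile normalization, cyclic loess and median centring (-1.12, -1.16 and -1.16).

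Of 8 other measured genes of mitophagy, 0 were called by limma in either direction and 7 were lower at an unadjusted p under 0.05, a step that 39.2% of all genes above the reference also passed. Their median was -0.54, with Sqstm1, the autophagy cargo receptor, going from 11.14 ± 0.05 to 10.56 ± 0.25 and Phb2, an inner membrane receptor, from 11.38 ± 0.06 to 10.94 ± 0.41 (mean ± SD, n = 3 per group). Phb2 on induced A, at 11.39, lay within the uninduced range. The induced values lay below all uninduced ones for 4 of the 8 genes, against 15.4% of all genes and 33.6% of those above the reference. The medians of the 8 genes were -0.17, -0.77 and -0.66 on induced A, B and C.

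The stretches before the start sites of 2 of the largest falls and of the 3 Egln genes are shown, because all of them hold the letters that HIF reads, in genes that were called lower and in Egln2, which was not. RefSeq's promoter table (GRCm38.p6, the assembly also called mm10) matched 31 of the 38 members with 41 windows, of which the 250 bases before each start site were searched on both strands for ACGTG and GCGTG, the cores of the hypoxia response element, which share 4 letters and can overlap. Capitals mark every match in either orientation, and each sequence runs 5′ to 3′ on the gene's strand.
Bnip3, chr7:138909507-138909756, minus strand: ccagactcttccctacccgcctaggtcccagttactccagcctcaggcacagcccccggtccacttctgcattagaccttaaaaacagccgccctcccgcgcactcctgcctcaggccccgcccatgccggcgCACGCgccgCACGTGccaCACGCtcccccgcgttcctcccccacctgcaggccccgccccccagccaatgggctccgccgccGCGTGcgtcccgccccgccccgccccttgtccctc
Fam162a, chr16:36071562-36071811, minus strand: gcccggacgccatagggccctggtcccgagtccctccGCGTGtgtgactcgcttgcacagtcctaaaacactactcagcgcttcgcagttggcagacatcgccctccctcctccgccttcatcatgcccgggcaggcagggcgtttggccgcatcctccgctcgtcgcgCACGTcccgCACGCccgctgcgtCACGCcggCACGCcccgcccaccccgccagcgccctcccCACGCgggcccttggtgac
Egln1, chr8:124949255-124949504, minus strand: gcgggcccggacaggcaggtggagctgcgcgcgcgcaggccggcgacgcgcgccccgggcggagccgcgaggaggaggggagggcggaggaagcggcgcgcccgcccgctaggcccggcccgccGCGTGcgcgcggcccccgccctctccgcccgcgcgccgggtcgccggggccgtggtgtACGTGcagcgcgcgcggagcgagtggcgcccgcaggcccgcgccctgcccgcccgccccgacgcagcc
Egln3, chr12:54203875-54204124, minus strand: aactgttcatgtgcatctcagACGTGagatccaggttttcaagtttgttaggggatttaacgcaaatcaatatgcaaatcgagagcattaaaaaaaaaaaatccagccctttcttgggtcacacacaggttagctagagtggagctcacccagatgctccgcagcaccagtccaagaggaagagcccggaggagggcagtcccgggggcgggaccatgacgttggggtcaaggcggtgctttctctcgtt
Egln2, chr7:27166803-27167052, minus strand: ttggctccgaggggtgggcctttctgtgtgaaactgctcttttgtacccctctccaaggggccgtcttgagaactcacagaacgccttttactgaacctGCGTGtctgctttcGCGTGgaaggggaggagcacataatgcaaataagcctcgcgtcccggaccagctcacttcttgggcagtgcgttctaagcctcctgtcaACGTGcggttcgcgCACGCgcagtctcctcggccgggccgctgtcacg

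The Bnip3 stretch held 2 matches to ACGTG, which are both strands of a single palindromic CACGTG, and 3 to GCGTG. That of Fam162a held 1 and 5, that of Egln1 1 and 1, that of Egln3 1 and 0, and the printed stretch of Egln2, the upstream of its 2 listed start sites, 1 and 3. At least 1 match was present for 13 of 15 members called lower that had a window (86.7%) and for 12 of 15 measured members not called (80.0%), against 41.5% of all 27025 genes in the table. The cores contain a CG pair, and the median GC content was 60.4% in the members' windows and 52.4% in all 32851 windows. GAGGAA, the core of the box that PU.1 binds, was found for 5 of 15 members called lower, 5 of 15 not called and 25.9% of all genes. A match describes letters only, and binding was not measured.

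Of the 5 genes of collagen modification and oxidative folding 3 fell, and the other 2 lay below the reference. Ero1a, the oxidase that drives disulfide formation in the endoplasmic reticulum, was at 12.53, 12.22 and 12.30 without doxycycline and 11.42, 11.24 and 11.07 with it. It fell by 1.11 (SE 0.15, limma adjusted p = 0.00474), and its second cluster differed by -0.91. P4ha1, a catalytic subunit of collagen prolyl hydroxylase, was at 9.82, 9.76 and 9.80 without doxycycline and 8.90, 7.96 and 7.90 with it. Uninduced values lay within 0.06 of each other, induced A stood well above induced B and C, and the difference was -1.54 (SE 0.23, adjusted p = 0.0101 by limma), with 2 of the 3 induced values above the reference. P4ha1 lost its call without uninduced A (-1.53) or induced C (-1.37). Plod1, a collagen lysyl hydroxylase, was at 9.38, 9.41 and 9.35 without doxycycline and 8.48, 7.98 and 7.96 with it, a difference of -1.24 (SE 0.16, adjusted p = 0.00401 by limma). Its induced B and C values lay only just above the reference of those arrays (7.98 and 7.86), so its size is uncertain. The related genes P4ha2 and Plod2 lay below the reference on all 6 arrays, at -0.14 (95% interval -0.41 to 0.14) and 0.06 (95% interval -0.25 to 0.37), the latter with the sign turned after cyclic loess (-0.11), quantile normalization (-0.064) and median centring (-0.053).

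Of the histone demethylases, which need oxygen as a substrate, Kdm3a and Kdm4b fell and Kdm4c did not pass the test. Kdm3a was at 9.13, 9.17 and 9.07 without doxycycline and 8.36, 8.26 and 8.08 with it, a difference of -0.89 (SE 0.13, adjusted p = 0.00846 by limma). Kdm4b was at 8.58, 8.60 and 8.45 without doxycycline and 8.06, 7.56 and 7.80 with it, a difference of -0.74 (SE 0.15, adjusted p = 0.0438 by limma). Among the induced arrays, Kdm4b was above the reference on induced A only. Kdm4c was at 8.51, 8.75 and 8.65 without doxycycline and 8.38, 8.73 and 8.51 with it, with overlapping groups and a difference of -0.09 (95% interval -0.40 to 0.22) that turned to 0.11 after quantile normalization and 0.23 after cyclic loess. Relative to Kdm4c on the same array, Kdm3a changed by -0.80 and Kdm4b by -0.64 (exact permutation p = 0.1 for each, 0.15 adjusted over the 6 pairs). Kdm3a against Kdm4b gave -0.15 (exact permutation p = 0.4, adjusted 0.48). The call of Kdm3a ended without uninduced A (-0.89) or induced C (-0.82) and after cyclic loess (-0.56), and that of Kdm4b without any array but induced A (-0.78 to -0.61), after quantile normalization (-0.63), cyclic loess (-0.48) and median centring (-0.85), and with robust moderation.

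Of the 3 secreted products 1 fell. Mif, macrophage migration inhibitory factor, was at 10.44, 10.30 and 10.60 without doxycycline and 9.67, 9.36 and 9.08 with it and fell by 1.08 (SE 0.17, limma adjusted p = 0.0114). The call of Mif ended without uninduced A (-1.08) or induced C (-0.94) and after cyclic loess (-0.72). Vegfa, the main angiogenic growth factor, was at 10.67, 10.28 and 10.76 without doxycycline and 10.04, 9.35 and 9.95 with it. Its groups were separated by 0.25, but uninduced B and induced B lay lowest in each group, and the difference of -0.79 (SE 0.20, adjusted p = 0.0838 by limma) was not called. Without induced A it was -0.92 and called, while it was -0.45 after cyclic loess and not called. Adm, the vasodilator peptide adrenomedullin, lay between 4.99 and 5.33, below the reference throughout.

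Ddit4 (chromosome 10, 59949675 to 59951770), which restrains mTORC1 under hypoxia and other stress, was at 9.15, 9.28 and 9.04 without doxycycline and 7.55, 7.06 and 7.51 with it. The fitted difference of Ddit4 was -1.78 (SE 0.16, adjusted p = 0.000427 by limma). Of the induced values B was lowest and only A lay above the reference, so the size of the Ddit4 difference is uncertain too. Ndrg1 (chromosome 15, 66929318 to 66969641), a stress-induced gene of differentiating cells, was at 9.97, 10.06 and 9.81 without doxycycline and 8.18, 8.44 and 7.97 with it. For Ndrg1 induced B was the highest of the induced samples, and the difference was -1.75 (SE 0.15, adjusted p = 0.000378 by limma), or 3.36-fold lower. After quantile normalization it was -1.55 and after cyclic loess -1.39, called under both. Induced C, at 7.97, lay not far above the reference of that array (7.86). A dimmer second cluster of Ndrg1 differed by -0.39, and the mean of both clusters by -1.07, still called. Gys1, the glycogen synthase outside liver, was at 10.59, 10.66 and 10.54 without doxycycline and 9.86, 9.31 and 9.26 with it, a difference of -1.12 (SE 0.17, adjusted p = 0.0106 by limma), and lost its call without uninduced A (-1.12), uninduced B (-1.09) or induced C (-1.01). Wsb1, a ubiquitin ligase adaptor, was at 9.73, 9.80 and 9.68 in untreated and 9.54, 9.47 and 9.07 in treated cells for A, B and C, with induced C lowest and a difference of -0.37 (SE 0.15, adjusted p = 0.152 by limma), which was -0.0055 after cyclic loess, -0.14 after quantile normalization and -0.23 without induced C.

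Of the 6 measured nuclear members 2 were called lower. Zfp395, a zinc finger protein, was at 9.42, 9.46 and 9.55 without doxycycline and 8.77, 8.76 and 8.84 with it, and the 3 induced values lay within 0.1 of each other. It fell by 0.69 (SE 0.12, limma adjusted p = 0.023), but the call ended after cyclic loess (-0.32) and quantile normalization (-0.46), with robust moderation, and without any array other than induced A (-0.71 to -0.65). The circadian repressor gene Bhlhe41 was called (limma adjusted p = 0.00759) at 6.85, 6.92 and 7.19 in untreated and 6.14, 5.90 and 5.88 in treated cells, but every value lay below the reference, so its size cannot be read, and the call ended without induced C (-0.96). Its close relative Bhlhe40 was at 10.01, 10.88 and 10.10 without doxycycline and 9.23, 10.70 and 9.12 with it. Uninduced B and induced B stood above the other 2 samples of their groups, the groups overlapped, and the difference of -0.65 (SE 0.38, adjusted p = 0.251 by limma) had a 95% interval of -1.48 to 0.18.

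Cited2, which competes with HIF for its coactivators, was at 11.62, 11.57 and 11.75 without doxycycline and 11.48, 10.92 and 11.29 with it, a difference of -0.41 (SE 0.16, adjusted p = 0.145 by limma). Narf, a nuclear lamin-binding protein, was at 8.81, 9.28 and 9.09 without doxycycline and 8.80, 8.01 and 8.29 with it, and its groups were separated by 0.011 with a difference of -0.69 (SE 0.20, adjusted p = 0.107 by limma). Without induced A both were called, Cited2 at -0.54 and Narf at -0.91. After cyclic loess neither was, at -0.15 and -0.36, and Cited2 was -0.26 without induced B. The nuclear receptor gene Rora lay below the reference on all 6 arrays at a difference of 0.17 (95% interval -0.12 to 0.46), which was -0.0072 after cyclic loess. The carbonic anhydrases that regulate pH at the cell surface were near the reference: Car9 differed by -0.07 (95% interval -0.37 to 0.24; 0.015 after cyclic loess) and Car12 by -0.32 (95% interval -0.65 to -0.0033).

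**Figure D2:**
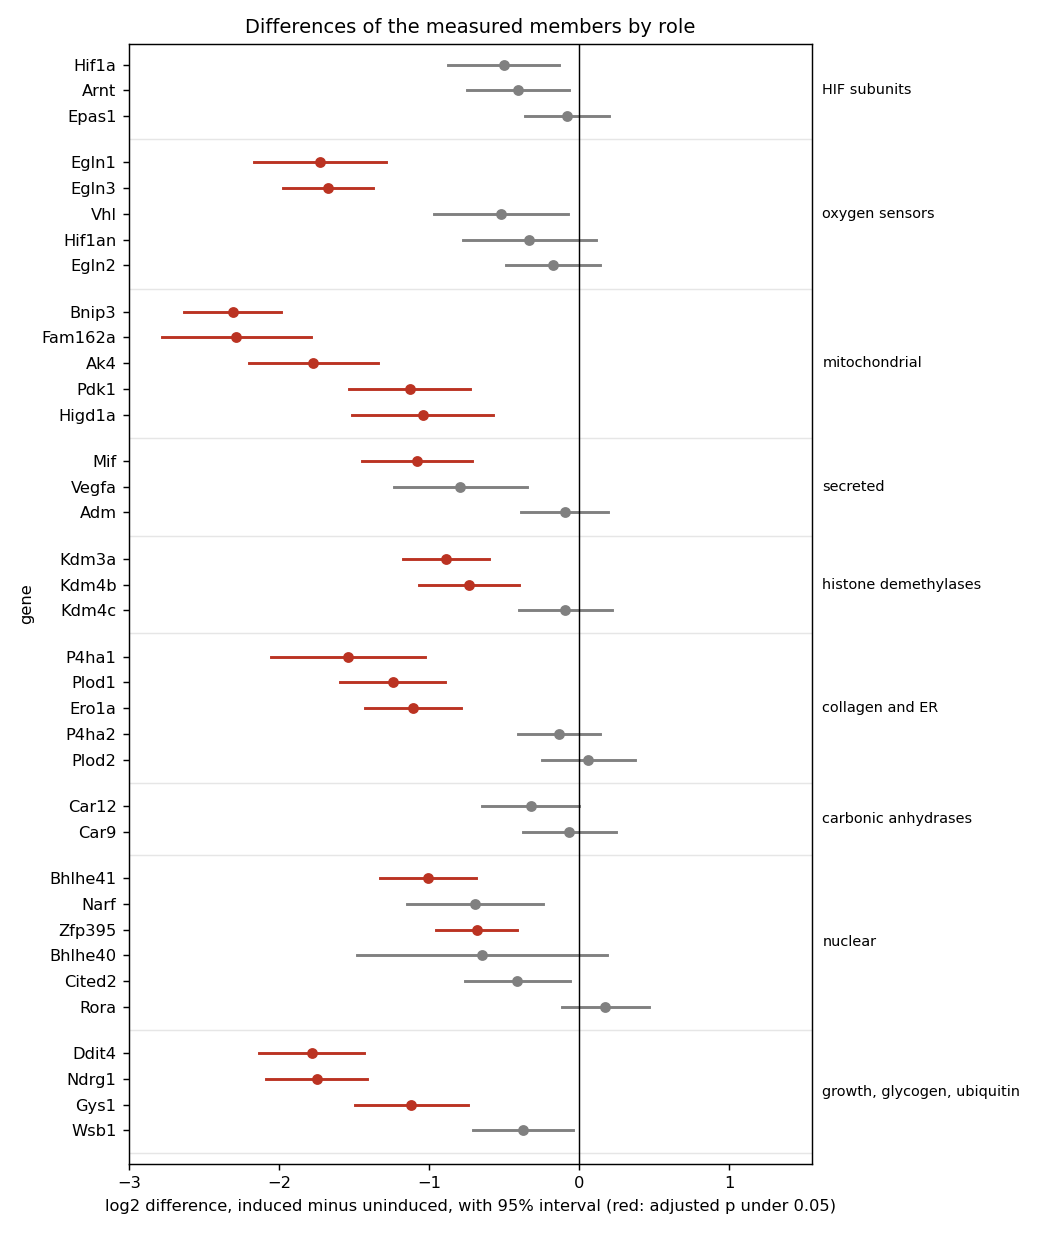
Log2 difference, induced minus uninduced (x axis), with its unadjusted 95% interval from limma for the 36 measured members (y axis), grouped by role and coloured red where the adjusted p was under 0.05. The 5 mitochondrial members are all red, whereas 0 of the 3 subunit genes are.

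Shown one induced array at a time, the members fell least in induced A. The median over the 36 members, each set against its uninduced mean, was -0.58, -0.93 and -0.81 for induced A, B and C, against 0.0025, 0.069 and 0.063 over all genes. Over the 8265 genes with a mean above the reference these medians were -0.10, -0.42 and -0.39, and over the 28 members above it -0.72, -1.07 and -1.13. Across all transcript clusters, arrays of the same group correlated at 0.9732 to 0.9879. Arrays of different groups correlated at 0.9421 to 0.9907, so the ranges overlapped. Induced A was the nearest of the 3 to the uninduced mean for 26 of 36 members and for 15 of the 18 called ones. Induced A lay below every uninduced sample for 30 of the 36 members. It did so for all 18 called members, but their calls drew on the same values. The exceptions in order were Ndrg1 and Egln3, with induced B nearest, and Zfp395, with induced C nearest.

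**Figure D3:**
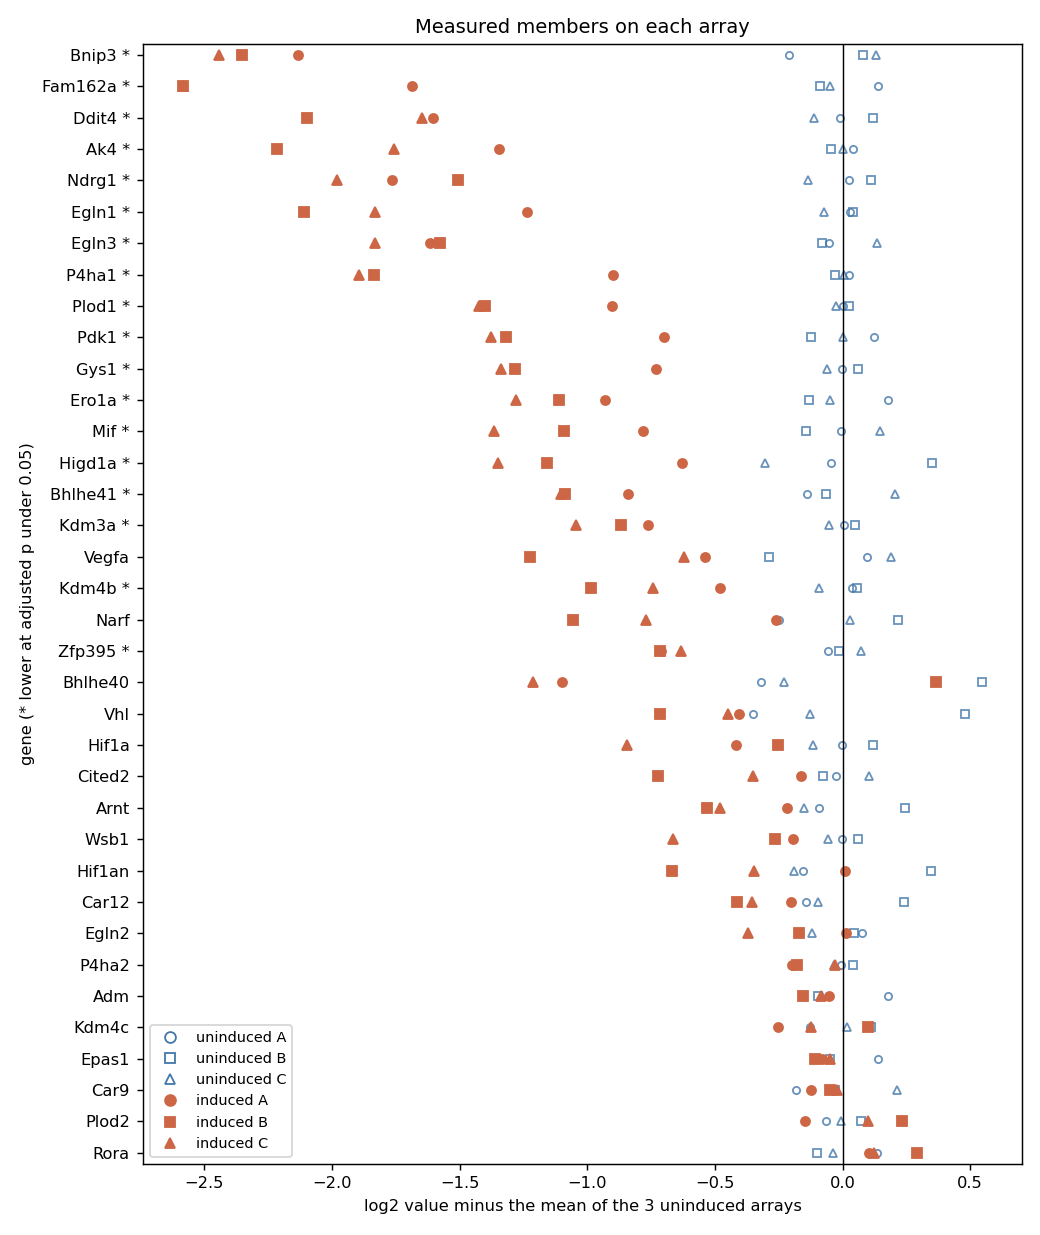
Log2 value minus the mean of the 3 uninduced arrays (x axis) for the 36 measured members (y axis), 1 symbol per array, open blue for uninduced and filled orange for induced, with a star on members called lower. The filled symbols of Bnip3 lie between -2.44 and -2.13, and the filled square of Bhlhe40, induced B, stands apart from the other induced samples at 0.37.

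Other genes of the pathway were read from lists kept beside the members, also chosen with earlier results of these data known. For comparison, 1.05% of all genes and 2.42% of those above the reference were called lower. At an unadjusted p under 0.05 these shares were 16.9% and 39.2%. Of 9 measured components of the degradation machinery and coactivators of HIF 0 were called by limma. At an unadjusted p under 0.05, 4 were lower, and the median was -0.17. Elob, a ligase adaptor, went from 10.69 ± 0.09 to 10.40 ± 0.10, and the coactivator gene Crebbp from 10.53 ± 0.12 to 10.38 ± 0.03 (mean ± SD, n = 3 per group), neither called. Of 17 measured further hypoxia targets 3 fell and 0 rose by limma (10 lower and 2 higher where the unadjusted p was under 0.05), and their median was -0.41. Gbe1, the glycogen branching enzyme, differed by -0.88 (SE 0.14, adjusted p = 0.0128 by limma), the secreted glycoprotein gene Stc2 by -0.73 (SE 0.14, adjusted p = 0.039 by limma) and Plin2, a lipid droplet coat protein, by -0.68 (SE 0.13, adjusted p = 0.0348 by limma).

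Among 30 measured paralogues of the members 2 fell and 0 rose by limma (10 lower and 1 higher at an unadjusted p under 0.05), and the median was -0.11. At that unadjusted step 16.9% of all genes and 39.2% of those above the reference were lower. Ndrg2 differed by -1.17 (SE 0.17, adjusted p = 0.00957 by limma) and Higd2a by -0.71 (SE 0.15, adjusted p = 0.0478 by limma). Of these paralogues 14 lay below the reference on all 6 arrays. The glycolytic targets of HIF held 8 lower and 0 higher of 18 measured (14 lower and 1 higher with an unadjusted p under 0.05), and their median was -0.74. The falls were -1.85 (SE 0.24, adjusted p = 0.00442 by limma) for the glucose transporter gene Slc2a1, -1.76 (SE 0.28, adjusted p = 0.0127 by limma) and -1.27 (SE 0.18, adjusted p = 0.00759 by limma) for the phosphofructokinase genes Pfkl and Pfkp, and -1.29 (SE 0.15, adjusted p = 0.00216 by limma) for the lactate exporter gene Slc16a3.

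**Figure D4:**
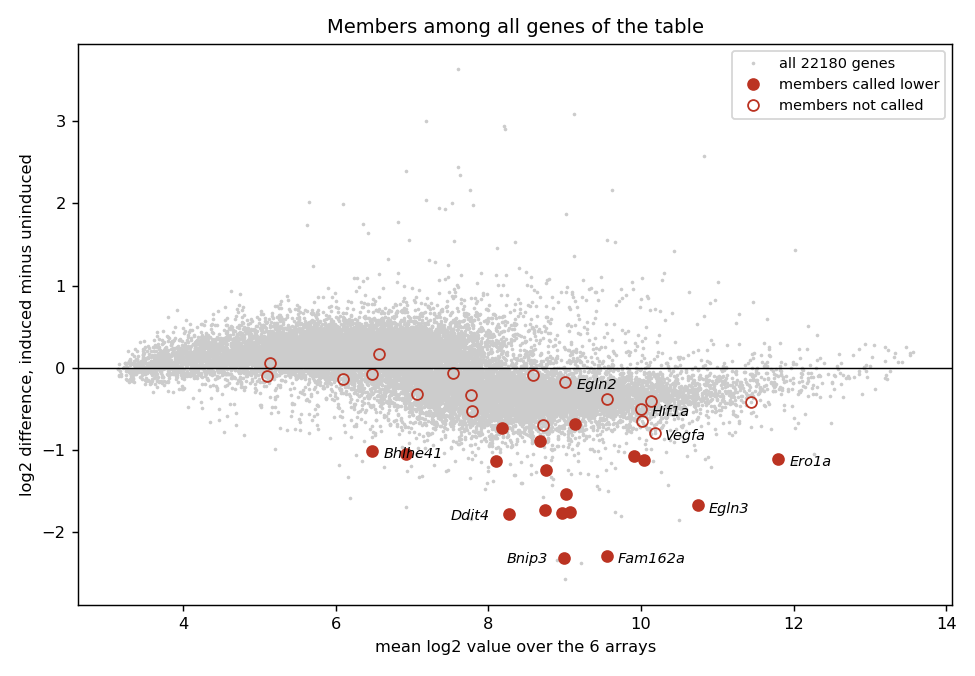
Log2 difference, induced minus uninduced (y axis), against the mean log2 value over the 6 arrays (x axis) for all 22180 genes in grey and the measured members in red, filled where called lower. The grey cloud bends below 0 among brighter genes, whose median is -0.31 above the reference, and the 18 filled members lie below its centre.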

How the data were processed

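The members and the gene lists beside them were chosen with earlier results of these data known. The authors deposited 1 log2 value per array for each of 41345 transcript clusters. Per the submitters' processing notes Partek and mm10 were used; how background was corrected and arrays were normalized and summarised was not stated in the sources used. The log2 scale is inferred from the range, 2.86 to 14.03.

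GEO's platform annotation gave 1 gene symbol to 23521 clusters, several to 1814, and did not list 16010, and the brightest cluster stood for each of 22180 genes. Gene positions are from RefSeq's GRCm38.p6 table. The 2 groups were fitted in R 4.3.3 with limma 3.58.1 (lmFit and eBayes, two-sided, without covariate or filter), with Benjamini-Hochberg adjustment over all genes. The number of arrays limits the precision. All members may be named; beside them, the rule named up to 4 called genes of each list by size, or the 2 brightest where none was called. Of each marker list it named up to 3 called genes, or else the 2 brightest; Csf1r was added after its values were seen. The fit was tested on simulated data. The 16 alternatives cover the letter as a block, scaling, filters, moderation, cluster means, weights, the threshold and each array left out.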

Additional observations from a re-analysis of the deposited data

How the results depend on the processing

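Of the 18 members called lower, 9 kept the call under all 16 alternatives. The count of lower members was 11 at a threshold of 0.01 and ran from 9 to 22 with 1 array left out, and it stayed between 12 and 27 under the other alternatives. No alternative called a member higher. The members' median was -0.42 after cyclic loess. The whole-table counts moved more. Lower genes numbered 425 with the letter as a replicate block, 118 after cyclic loess, 5681 with array weights, 55 at a threshold of 0.01 and 47 to 3535 with 1 array left out. Higher genes numbered 174 with the replicate block, 51 after median centring, 5825 with array weights, 43 at 0.01 and 45 to 1998 with 1 array left out, both maxima without induced A. Deviations from the group means of same-lettered samples correlated at -0.31, -0.28 and 0.42 for A, B and C across genes, so the letters were not taken as pairs. The replicate block gave 19 lower members, Vegfa being added, and array weights added 9. The sign turned for members that were never called: Egln2 (0.047 after quantile normalization, 0.18 after cyclic loess), Kdm4c (0.11 and 0.23), Plod2 (-0.064, -0.11, -0.053 after median centring; -0.025 to 0.166 with 1 array left out), Car9 (0.015 after cyclic loess, -0.156 to 0.040 with 1 array left out) and Rora (-0.0072 after cyclic loess). The cause of these shifts was not tested. Members near or below the reference range (6 of 36 on all arrays) have levels that the arrays may not resolve.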
